A study of Mus musculus with 4 samples.

Results

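The insulin-like growth factor genes are described here across the cells of transplanted mouse hearts. The genes were taken from the deposited gene list by symbol, as the 8 of its 30905 genes named Igf1, Igf2, H19, Igfbp3, Igfbp4, Igfbp5, Igfbp6 and Igfbp7. All 8 were found. The list was set by symbol, with earlier results of these data known. Single cells were profiled with the 10x Chromium 3' chemistry from 4 heterotopic heart grafts on day 5 after transplantation, 2 allogeneic and 2 syngeneic. Male mice aged 8 to 10 weeks were used. The allogeneic grafts carry the strain label Balb/C, and these donor hearts went into C57BL/6J recipients. The syngeneic grafts carry the label C57BL/6J and went into the same strain. No transgene or engineered allele is named for any animal, and blood-borne cells of the recipient can enter either kind of graft. The 4 grafts were deposited as 1 merged matrix in which a cell's library is known only from a barcode suffix (1 to 4) that nothing ties to a graft. The suffixes are therefore called libraries 1 to 4. Some levels are given by library and the others are pooled only. No comparison of allogeneic with syngeneic grafts or test across grafts was made.

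Igf1 and Igf2 encode secreted growth factors that act mainly through the Igf1 receptor. Igf2 is also taken up and cleared by the Igf2 receptor. Most circulating Igf1 comes from the liver under growth hormone, while stromal cells and macrophages are known local sources in injured tissue. H19 is a long noncoding RNA and Igf2's neighbour. The 2 genes are imprinted in opposite directions, share enhancers and are turned down in most tissues after birth. The binding proteins Igfbp3 to Igfbp6 hold the growth factors in the circulation or the matrix with high affinity and can block or prolong their action. Igfbp7, also known as angiomodulin, binds them weakly and is abundant in vessel walls.

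The matrix held 53824 cells, of which 42395 remained after the filters on genes, mitochondrial reads and doublets. Deposited cells had medians of 4759 to 9784 UMIs (unique molecular identifiers, each counting 1 captured RNA molecule) in the 4 libraries, and 308 barcodes occurred in more than 1 library. The cells were clustered without the 8 genes and named from fixed marker lists. A name ending in "-like" means that the cluster carried that list's markers. Heart muscle was represented by 1248 cardiomyocyte-like cells, with Tnnt2 and Myh6. 28 classes with at least 50 cells were compared. A level is a gene's UMIs pooled over a class per 1000000 non-mitochondrial UMIs (CPM), with an exact Poisson 95% interval that covers counting error only. Single cells and libraries are not replicates of a condition, and levels are compared for 1 gene across classes, never between genes. In the order of the 28 classes by level, the intervals of neighbouring classes met in 9 of 27 pairs for Igfbp7, 13 for Igfbp5, 14 for Igfbp4, 18 for Igfbp3, 19 for Igfbp6, 20 for Igf1, 22 for H19 and 25 for Igf2. 589 cells (1.39% of the kept cells, 3.43% in library 3 and 0.68% to 0.992% in the others) lay in 3 clusters with markers of 2 classes and were left without a class by a rule set after the clusters were seen.

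**Figure D1:**
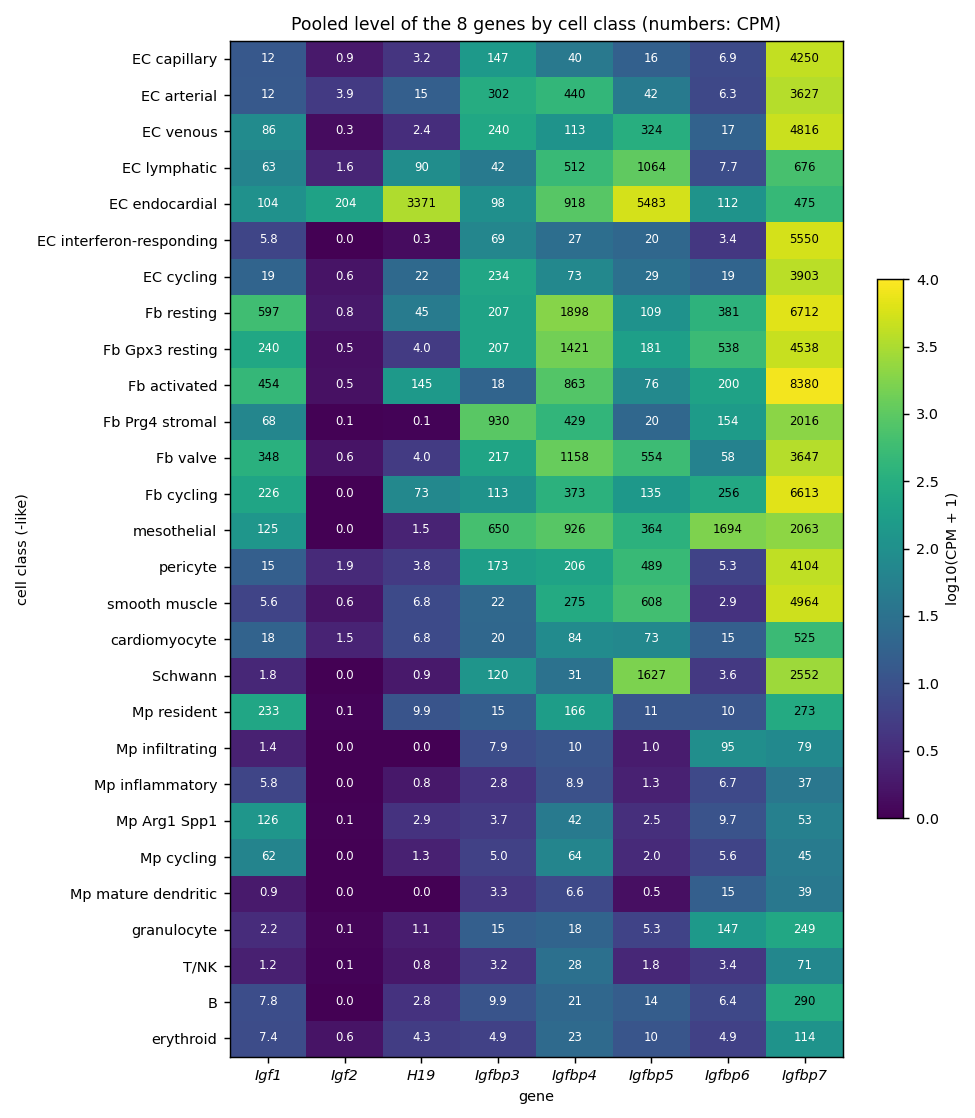
Heat map of the pooled level (CPM, printed in each cell and coloured on a log scale) of the 8 genes, in columns, in each named class, in rows. H19, Igf2 and Igfbp5 have their highest values in the endocardial-like row (3371, 204 and 5483 CPM), and Igf1 and Igfbp4 in the resting fibroblast-like row (597 and 1898 CPM).

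Igf1, on the plus strand at chr10:87858265-87937042 (GRCm38), was a gene of the stroma and of some macrophages. The 5809 fibroblast-like cells, 13.7% of the kept cells, held 77.5% of its 42592 UMIs. Its level was highest in resting fibroblast-like cells, defined by Clec3b, Pi16 and similar genes, at 597 CPM (587 to 607). Activated fibroblast-like cells, with Postn and Cthrc1, followed at 454 CPM (444 to 464) and valve-like cells at 348 CPM (332 to 366). These 3 intervals did not meet. Fibroblast-like cells with Gpx3 at 240.1 CPM, resident-like macrophages at 233 CPM and cycling fibroblast-like cells at 226 CPM came next, and their neighbouring intervals overlapped. Among vessel classes Igf1 reached 104 CPM in endocardial-like and 85.5 CPM in venous-like cells. It was at 11.5 CPM in capillary-like and 12.1 CPM in arterial-like cells. The endocardial-like class also carried fibroblast markers, whose part in its Igf1 level was not tested.

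Over all fibroblast-like cells, Igf1 stood at 418 CPM in library 1, 68.8 CPM in library 2, 460 CPM in library 3 and 219.6 CPM in library 4. The 4 libraries did not hold the same fibroblast subsets: 691 of the 718 cells of the Prg4 class came from library 2, 1231 of the 1300 cells of the Gpx3 class from library 1 and 802 of the 1044 activated-like cells from library 3, without which the activated-like level of Igf1 was 286 CPM. Within the resting class the level was 653 CPM in library 1 and 558 CPM in library 3, the only libraries with 50 or more such cells. The Prg4 class of library 2, which also carried Ptx3 and Has1, had 62.1 CPM.

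In macrophages the level of Igf1 depended on the class and on the library. All macrophage-like cells together had 207 CPM in library 1 and 228 CPM in library 3, but 4.52 CPM in library 2 and 2.55 CPM in library 4. Resident-like macrophages, with Folr2, Mrc1 and Cd163, had 277 CPM in library 1 and 318 CPM in library 3 and 24.2 CPM in library 2. The class with Arg1, Spp1 and Gpnmb had 411, 267 and 14.2 CPM in libraries 1, 3 and 4. The libraries did not hold the same clusters of these classes. Of the resident-like cells, 156 of 181 in library 1 and 397 of 468 in library 3 were of a cluster led by Fcrls, Ms4a7 and Cx3cr1, and 141 of 166 in library 2 of one led by Cd163, F13a1 and Mrc1. In the Arg1 class the 415 cells of library 4 were of a cluster led by Ccl8, Ccl5 and C1qa, and the 70 and 241 cells of libraries 1 and 3 of one led by Spp1, Trem2 and Ms4a7. Library and cluster therefore cannot be told apart in these values. Infiltrating-like cells, with Ccr2 and Chil3 and led also by Arg1 and Ccl24, had 1.36 CPM (0.763 to 2.25), an interval that overlapped that of the T/NK-like cells (1.21 CPM, 0.824 to 1.72). Igf1 was detected in 64.1% of resident-like macrophages, 1.81% of infiltrating-like cells and 1.61% of T/NK-like cells, and after every cell was thinned to 1000 UMIs in 20.4%, 0.166% and 0.325%. Their median depths were 12196, 17231 and 8454 UMIs. The infiltrating-like cells were nearly all of library 2 (581 of 607), where they had 0.756 CPM and resident-like macrophages 24.2 CPM. The pooled contrast of these 2 classes therefore mixes class with library. The 9 fibroblast markers summed to 939 CPM in resident-like macrophages and to 78909 CPM in resting fibroblast-like cells. Pooled over libraries, the macrophages held 1.19% of the fibroblast markers' level and 39.1% of the fibroblasts' Igf1 level. The part of fibroblast RNA in the macrophages' Igf1 level was not tested. By library, however, the fibroblast markers moved with Igf1 in resident-like macrophages, with 777, 143 and 1200.3 CPM in libraries 1 to 3, and their part in the library difference was not tested.

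**Figure D2:**
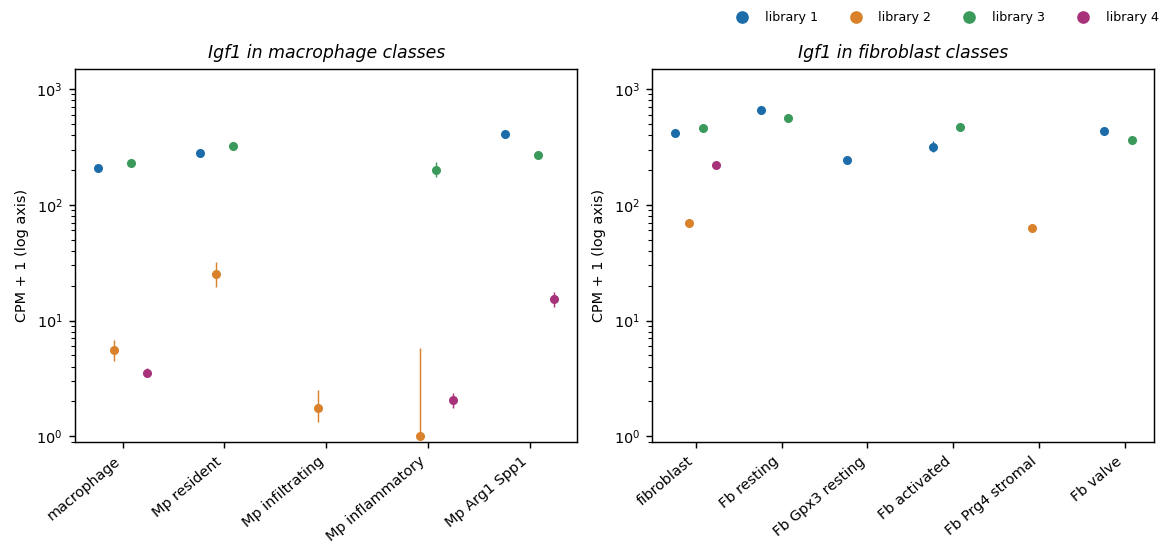
Igf1 level (CPM + 1, log axis) by library in macrophage classes (left) and fibroblast classes (right). Points are pooled levels in groups of at least 50 cells and bars are Poisson 95% intervals. Resident-like macrophages sit at 277 and 318 CPM in libraries 1 and 3 and at 24.2 CPM in library 2, and the fibroblast classes of libraries 1 and 3 all lie above the Prg4 class of library 2.

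Igf2 and H19 lie 72622 bases apart on the minus strand of chromosome 7 (Igf2 chr7:142650766-142666816, H19 chr7:142575529-142578143, GRCm38). Among named classes, both had their highest pooled level in a small set of endocardial-like cells. Such cells line the heart chambers, and here they carried Npr3, Cytl1, Tmem108 and Vwf. These 148 cells, 0.349% of the kept cells, held 51.2% of all 603 Igf2 UMIs and 38.2% of all 13343 H19 UMIs. Their share of H19 UMIs was 61.3%, 5.07%, 27.6% and 16.4% in libraries 1 to 4, and 25.1% without library 1. In library 3 fibroblast-like cells held more of the H19 UMIs, 45.3%. The share of Igf2 UMIs was 34.4% without library 1. Igf2 was at 204 CPM there (182 to 228) and below 4 CPM in each of the other 27 classes. The next highest, arterial-like cells, had 3.87 CPM, and 9 classes had no Igf2 UMI. H19 stood at 3371 CPM (3279 to 3465) in endocardial-like cells, against 3.19 CPM (2.79 to 3.62) in capillary-like cells.

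The endocardial-like cells came mainly from libraries 1 and 3, with 89 and 49 cells, and libraries 2 and 4 gave 6 and 4. Their naming markers differed by library. Npr3 was at 1095 and 182 CPM in libraries 1 and 3, Cytl1 at 721 and 322 CPM and Tmem108 at 285 and 404 CPM. H19 was at 3626 CPM in library 1 and 3651 CPM in library 3. Igf2 was at 259.6 CPM in library 1 and 172 CPM in library 3. The 10 cells of the other libraries had less, with 269 CPM of H19 in library 2 and 1789 CPM in library 4. In every library, however, H19 was higher in endocardial-like than in capillary-like cells, whose 4 values ran from 0.448 to 5.82 CPM.

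Cell by cell, H19 was detected in 104 of the 148 endocardial-like cells and Igf2 in 65. 62 of the 65 cells with Igf2 also had H19, 42 cells had H19 without Igf2 and 41 had neither. In capillary-like cells 174 of 10754 had H19, 61 had Igf2 and 2 had both. At 1000 UMIs per cell H19 was found in 57.4% of endocardial-like and 0.343% of capillary-like cells, and without thinning in 70.3% and 1.62%, at median depths of 7957 and 4688 UMIs. Igf2 at the same depth was found in 10.8% and 0.104%.

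The endocardial-like class was not a clean endothelial profile. All 8 endothelial markers were present and summed to 5003 CPM, but 8 of the 9 fibroblast markers were above 10 CPM and summed to 10561 CPM, against 640.3 CPM in capillary-like and 78909 CPM in resting fibroblast-like cells. Dcn was at 2515 CPM, Col1a1 at 57.5 CPM and the lymphatic marker Prox1 at 111 CPM (2.17 CPM in capillary-like cells). The 5 erythroid markers summed to 4769.7 CPM and to 8792 CPM in library 1, against 697 CPM in capillary-like cells. H19 and Igf2 were both lower in resting fibroblast-like cells, at 44.7 and 0.833 CPM, than in the endocardial-like class, and in erythroid-like cells they were at 4.31 and 0.616 CPM.

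A second group with H19 had no class. This cluster of 135 cells was led by Sprr1a, Selp, Csf3 and Lyve1 and had both endothelial markers (Cdh5 at 583 CPM) and fibroblast markers (Dcn at 2728 CPM). It held 22.7% of all H19 UMIs and 11.6% of all Igf2 UMIs. In library 2 the cluster held 215 of the 276 H19 UMIs and in library 4 923 of 1329, against 14 and 218 in endocardial-like cells. Its H19 level was 3773 CPM in library 1 (12 cells), 151 CPM in library 2 (94 cells), 2452 CPM in library 3 (15 cells) and 2413 CPM in library 4 (14 cells). The 94 cells of library 2 thus had the lowest level, and in each library 11 cells had an H19 UMI. Col1a1 was at 0.703 CPM in its library 2 cells and at 452 to 2098 CPM in the others.

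After the endocardial-like class, H19 was highest in activated fibroblast-like, lymphatic-like and cycling fibroblast-like cells. Igf2 was low there, as in every named class other than the endocardial-like one. The 85 cycling fibroblast-like cells had 72.8 CPM of H19 (62.6 to 84.3) and no Igf2 UMI. Activated fibroblast-like cells had 145 CPM of H19 (139 to 151) and 0.487 CPM of Igf2, and lymphatic-like cells, with Prox1 and Ccl21a, had 90.5 CPM and 1.63 CPM. In activated-like cells H19 was at 168 CPM in library 1 and 145 CPM in library 3. These were mostly different clusters: 175 of the 204 cells of library 1 were of a shallow cluster (median 1109 UMIs per cell) with 69.5 CPM of H19 in that library, and 571 of the 802 cells of library 3 were of a deeper one with 146 CPM. In lymphatic-like cells it was at 92.1 and 129 CPM in the same libraries. These libraries together had 112 CPM, against 90.5 CPM over all 185 lymphatic-like cells. The lymphatic-like cells of the other libraries thus had less H19. Resting fibroblast-like cells had 24.4 and 67.4 CPM of H19 in libraries 1 and 3 and Gpx3 cells of library 1 had 3.76 CPM.

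**Figure D3:**
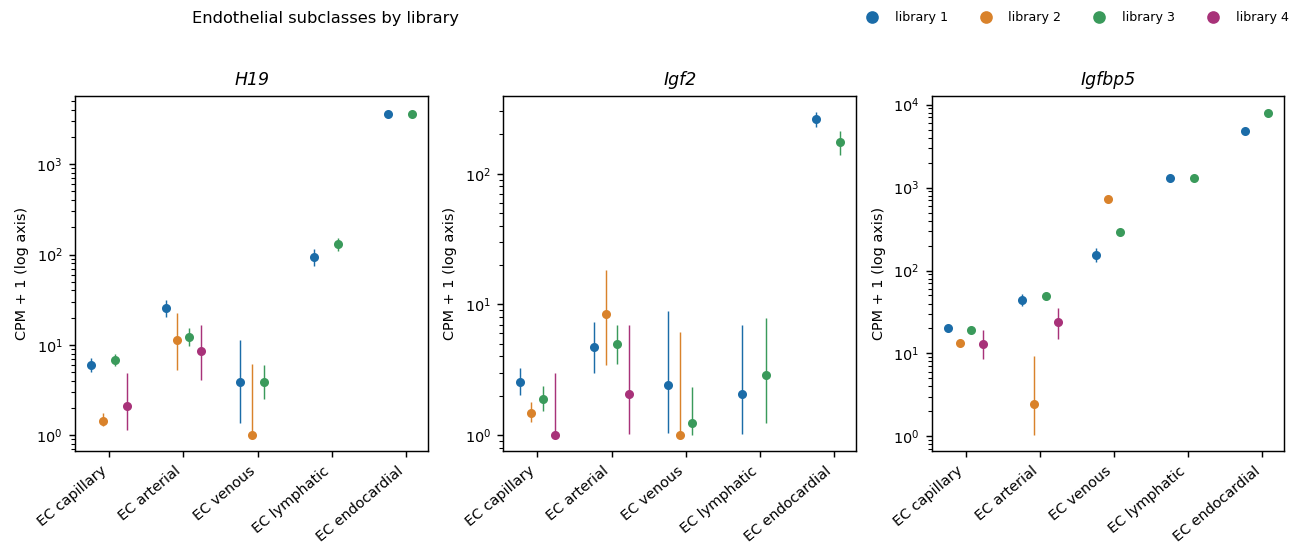
Level (CPM + 1, log axes) of H19, Igf2 and Igfbp5 in 5 endothelial classes by library, with Poisson 95% intervals, for groups of at least 20 cells. The endocardial-like points of libraries 1 and 3 are the highest in each panel. For H19 and Igfbp5 the lymphatic-like points of the same libraries come next, at 92.1 and 129 CPM and at 1301 and 1286 CPM.

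H19 is also the host of a microRNA hairpin. Its 2 mature products are shown because they are the annotated product of the transcript whose level, among named classes, was highest in endocardial-like cells. They lie in exon 1 of transcripts H19-202 and H19-205, at chr7:142577112-142577133 (5p) and chr7:142577078-142577099 (3p) on the minus strand. The sequences are those of RefSeq on GRCm38.p6, with the seed (bases 2 to 8) in capitals.
mmu-miR-675-5p: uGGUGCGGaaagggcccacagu
mmu-miR-675-3p: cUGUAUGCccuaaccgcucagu
Neither seed is shared by another of the 1679 mature mouse microRNAs compared. Igf2 hosts a hairpin as well, whose mature forms lie within the gene but in no annotated exon.
mmu-miR-483-5p: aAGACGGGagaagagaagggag
mmu-miR-483-3p: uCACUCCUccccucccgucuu
Mature microRNAs are not captured by 3' poly(A) libraries, so the counts above are of the host transcripts.

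Igfbp5, at chr1:72857932-72874884 on the minus strand, was, like H19, highest in endocardial-like cells. They had 5483 CPM (5366 to 5602) and held 18.0% of its UMIs. Schwann-like cells were second with 1627 CPM (1553 to 1703) and lymphatic-like cells came next with 1064 CPM (1023 to 1105). Smooth muscle-like cells had 608 CPM, valve-like cells 554 CPM, pericyte-like cells 489 CPM and venous-like cells 324 CPM. Capillary-like cells had 15.8 CPM (14.9 to 16.8). The upper 6 of these intervals were all separate from their neighbours. Lymphatic-like cells had 1301 CPM in library 1 and 1286 CPM in library 3, both above their pooled level. Those of the other libraries thus had less Igfbp5.

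The mural cells, which wrap the vessels, differed by library more than by type. Pericyte-like cells had 761 CPM of Igfbp5 in library 1, 68.8 CPM in library 2 and 730.3 CPM in library 3. Smooth muscle-like cells had 961 CPM, 85.9 CPM and 893 CPM in the same libraries. Library 2 was thus lowest in both by about the same factor. The markers of these cells were also lowest there: the 8 pericyte markers summed to 10289.9, 4581 and 12260.5 CPM in pericyte-like cells, and Myh11 was at 4738, 2032 and 3973 CPM in smooth muscle-like cells. Their part in the Igfbp5 difference was not tested. The share of pericyte-like cells with Igfbp5 at 1000 UMIs was 45.1%, 5.11% and 43.7%. Schwann-like cells showed 2288 CPM in library 1 (62 cells), 2654 CPM in library 3 (40 cells) and no UMI in the 44 cells of library 2, without which the pooled level was 2450.3 CPM. Venous-like cells went the other way, with 152 CPM in library 1, 726 CPM in library 2 and 288 CPM in library 3.

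Igfbp4, at chr11:99041244-99054392 on the plus strand, was highest in the resting stroma. Resting fibroblast-like cells had 1898 CPM (1879 to 1916), Gpx3 cells 1421 CPM, valve-like cells 1158 CPM and activated-like cells 863 CPM. Without library 1, the source of most Gpx3 cells, their level was 615 CPM. Mesothelial-like and endocardial-like cells, at 926 and 918 CPM, had overlapping intervals. All fibroblast-like cells together held 77.4% of its UMIs and had 1743, 498, 1060.2 and 647 CPM in libraries 1 to 4.

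Within the endothelium Igfbp4 set arteries apart from capillaries. Arterial-like cells, with Gja5, Stmn2 and Hey1, had 254 CPM in library 1, 3134 CPM in library 2, 269 CPM in library 3 and 257 CPM in library 4. Capillary-like cells had 52.6, 27.2, 50.8 and 9.26 CPM. Every arterial value was above every capillary value. Arterial-like cells comprised 2 clusters. The 376 cells led by Gja5, Stmn2 and Sema3g had 983, 3350 and 845 CPM in libraries 1 to 3, and the 836 cells led by Stmn2 and Alpl had 129 CPM in library 1 and 114 CPM in library 3. Igfbp4 was therefore more than 7-fold higher in the first cluster in libraries 1 and 3, which held 50 or more cells of both clusters, and 119 of the 130 arterial-like cells of library 2 belonged to it.

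The windows before the RefSeq starts of Igfbp4 and Igfbp5 are shown because the pooled levels of both genes were higher in endocardial-like, lymphatic-like, arterial-like, venous-like and cycling endothelial cells than in capillary-like cells. Igf1 was also higher in these classes (arterial-like 12.1, capillary-like 11.5 CPM), so the pattern does not set the 2 genes apart. In library 2, Igfbp5 was lower in arterial-like (1.49 CPM) than in capillary-like cells (12.5 CPM). The windows run from -100 to -1 on the gene's strand (GRCm38.p6, Igfbp4 chr11:99041144-99041243, plus strand, and Igfbp5 chr1:72874866-72874965, minus strand). Capitals mark the TATA-like hexamer, which was TATAAA in the window of Igfbp4 and its variant TTTAAA in that of Igfbp5. Both strands were searched for these hexamers, for the GC box written as GGGCGG and for the CCAAT box.
Igfbp4: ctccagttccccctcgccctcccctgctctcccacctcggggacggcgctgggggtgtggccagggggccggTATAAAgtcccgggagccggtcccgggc
Igfbp5: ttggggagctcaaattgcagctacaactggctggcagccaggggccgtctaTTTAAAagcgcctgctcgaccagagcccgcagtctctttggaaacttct
The hexamer begins at -28 in Igfbp4 and at -49 in Igfbp5, where the GENCODE start lies 19 bases upstream of the RefSeq one. TATAAA occurs in 5.56% and TTTAAA in 4.39% of 32851 mouse windows of this length. The other 5 genes with a window (Igf1, Igf2, Igfbp3, Igfbp6 and Igfbp7) held neither hexamer. Other TATA-like forms were not searched for, and the Igfbp3 window holds TATATA. These are letter matches and nothing here measures binding.

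Igfbp3, at chr11:7206086-7213923 on the minus strand, carries most circulating growth factor as part of a larger complex. Its level was highest in the Prg4 class at 929.9 CPM (916 to 944), then in mesothelial-like cells at 649.7 CPM (615 to 686) and in arterial-like cells at 302 CPM. Venous-like cells had 239.5 CPM, resting fibroblast-like cells 207 CPM, pericyte-like cells 173 CPM, capillary-like cells 147 CPM and activated fibroblast-like cells 18.1 CPM (16.1 to 20.3). The fibroblast-like values were 248, 909, 40.8 and 234 CPM in libraries 1 to 4, and 691 of the 797 cells of library 2 were of the Prg4 class. Capillary-like cells had 100.4, 72.9, 301 and 53.4 CPM. Library 3 was thus lowest in fibroblasts and highest in capillaries, arteries (469 CPM) and pericytes (267 CPM). Without library 3 the arterial level was 112 CPM.

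Igfbp6, at chr15:102144362-102149511 on the plus strand, prefers Igf2 over Igf1. Its highest level was in mesothelial-like cells, the outer lining of the heart, at 1694 CPM (1638 to 1752) in 50 cells. These cells also had Dcn at 7847 CPM, against 6663 CPM in activated fibroblast-like cells. Their median depth was 36678 UMIs, against 14290 UMIs in all fibroblast-like cells. The part of fibroblast RNA in their Igfbp3, Igfbp4 and Igfbp6 levels was not tested. Gpx3 fibroblast-like cells had 538 CPM of Igfbp6, resting ones 381 CPM and activated ones 200.5 CPM. Fibroblast-like cells as a whole had 443, 144, 301 and 234 CPM in libraries 1 to 4. Of the leukocytes, granulocyte-like cells had 147 CPM (141 to 153) and infiltrating-like macrophages 94.5 CPM (88.9 to 100.4), against 10.5 CPM in resident-like macrophages and 3.41 CPM in T/NK-like cells. The granulocyte-like values were 181, 163, 223 and 39.8 CPM in libraries 1 to 4. Igfbp6 was detected in 29.1% of granulocyte-like and 4.28% of T/NK-like cells, and at 1000 UMIs in 12.0% and 0.596%, at median depths of 3465 and 8454 UMIs. The 9 fibroblast markers summed to 1749.8, 295 and 2211 CPM in granulocyte-like cells of libraries 1 to 3 and to 428 CPM in library 4. They were thus highest in libraries 1 and 3, where Igfbp6 was highest. Library 2, with 2742 of the 3871 granulocyte-like cells, had lower fibroblast markers than library 4 but more Igfbp6. The part of these markers in the result was not tested.

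Igfbp7, at chr5:77349240-77408041 on the minus strand, was the only member to reach 20 CPM in all 28 classes. Activated fibroblast-like cells had 8379.8 CPM, resting ones 6712 CPM, capillary-like cells 4250.1 CPM and pericyte-like cells 4104 CPM. All fibroblast-like cells had 4992, 1897, 8131 and 4652 CPM in libraries 1 to 4, and endothelial-like cells 2296, 4753, 4460 and 5444 CPM. Fibroblast-like cells were thus the lower of these classes in libraries 2 and 4. Within the endothelium 2 classes stood apart at the low end, lymphatic-like cells with 676 CPM and endocardial-like cells with 475 CPM, and their order was the reverse of that for Igfbp5. Capillary-like cells had 2487, 4929, 4639 and 6004 CPM in libraries 1 to 4. T/NK-like cells, a class not known for this gene, had 71.0 CPM. By annotation, the opposite-strand genes Polr2b and Gm34648 overlap Igfbp7, and Igf1os on the opposite strand overlaps Igf1. Igf2 is overlapped by Igf2os on the opposite strand and by Gm49394 on its own strand. How the counting treated reads from these overlaps is not given in the sources used here.

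**Figure D4:**
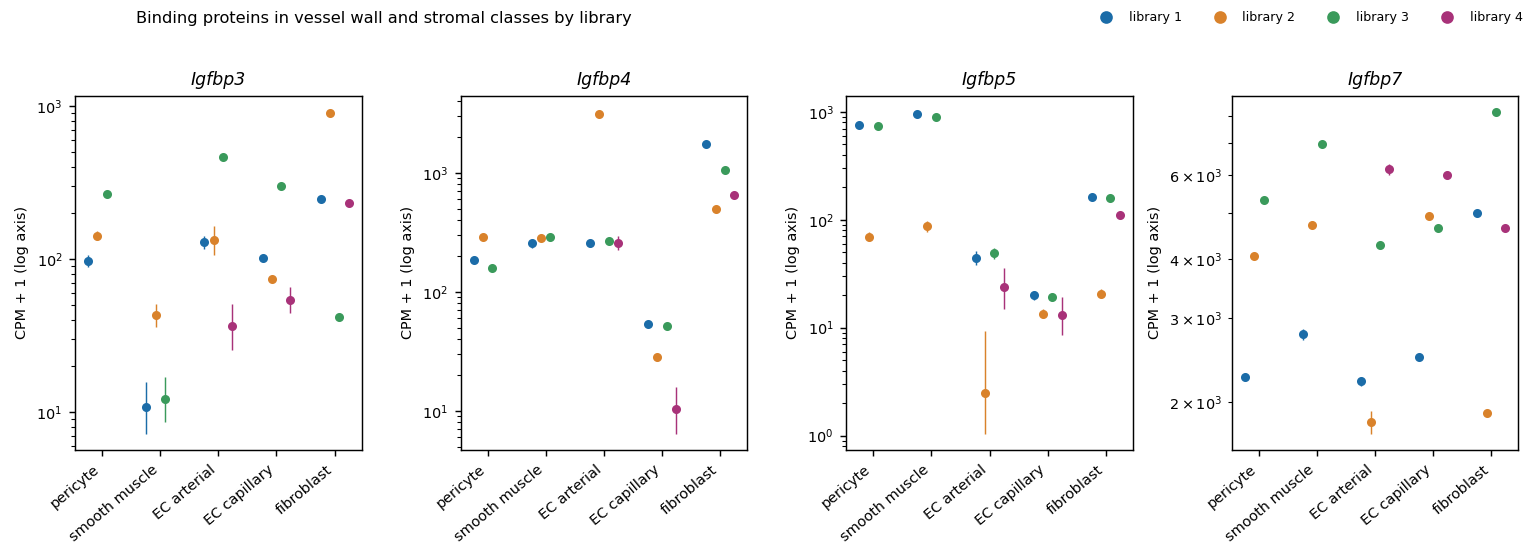
Level (CPM + 1, log axes) of Igfbp3, Igfbp4, Igfbp5 and Igfbp7 in pericyte-like, smooth muscle-like, arterial-like, capillary-like and fibroblast-like cells by library, with Poisson 95% intervals, for groups of at least 50 cells. Library 2 is lowest for Igfbp5 in pericyte-like (68.8 CPM) and smooth muscle-like (85.9 CPM) cells, and its arterial-like cells have the highest Igfbp4 (3134 CPM).

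7 pairs of classes were then compared within libraries. A gene was called when it differed at least 2-fold, with 10 CPM added to both levels, in the same direction in every library holding 50 or more cells of both classes, and was compared only if it reached 20 CPM in one of them. This is a rule of size and no test across grafts. The members and the pathway list were chosen with earlier results of these data known. Their counts beside the shares of all genes are therefore descriptions only. Between fibroblast-like and endothelial-like cells, in 4 libraries, 3 of 7 members compared were called, against 14.2% of 7333 genes. All 3 were higher in fibroblast-like cells: Igf1 by 12.2-fold, Igfbp4 by 8.99-fold and Igfbp6 by 15.9-fold. Of all genes 5.63% were called higher and 8.52% lower. The median log2 difference of all members, compared or not, was 0.63 and that of the genes compared -0.15. Igfbp3 was higher in fibroblast-like cells in libraries 1, 2 and 4 (log2 1.27, 3.39 and 1.98) and lower in library 3 (-2.68).

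Activated and resting fibroblast-like cells could be compared in libraries 1 and 3. Only Igfbp3 of 7 members was called, against 2.37% of 6499 genes in either direction and 1.51% lower, and it was lower in activated-like cells by log2 -2.40 and -2.07. H19 was higher by 2.38 in library 1 and by 1.00 in library 3, where it fell just short of 2-fold and so was not called, though it was with 1 CPM added. Postn was at 2379 CPM in activated-like and 1653 CPM in resting cells of library 1, and at 7718 and 2863 CPM in library 3. The activated-like cells of library 1, most of them of the shallow cluster, thus had less Postn than the resting cells of library 3. The median log2 difference of all members, compared or not, was -0.43 and that of the genes compared -0.05.

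Each endothelial class was compared with capillary-like cells. Endocardial-like cells, in library 1 only, had 7 of 8 members called, against 16.8% of 7121 genes (8.33% higher and 8.44% lower). H19 was higher by 243-fold, Igfbp5 by 166-fold, Igf2 by 23.3-fold, Igfbp4 by 17.8-fold, Igf1 by 3.49-fold and Igfbp6 by 3.17-fold. Igfbp7 was lower (0.115-fold). In library 1 fibroblast markers summed to 11112 CPM in endocardial-like, 900 CPM in capillary-like and 78021 CPM in resting fibroblast-like cells. Those resting cells had more Igf1 (653 CPM), Igfbp4 (2252 CPM) and Igfbp6 (381 CPM) than the endocardial-like cells (78.4, 1106 and 41.6 CPM). Their H19, Igf2 and Igfbp5 were lower. The part of fibroblast RNA in these calls was not tested. Lymphatic-like cells, in libraries 1 and 3, had 6 of 6 called, against 13.8% of 7276 genes (7.05% higher and 6.76% lower). Igfbp5 was higher by 45.6-fold, Igfbp4 by 9.54-fold, H19 by 7.90-fold and Igf1 by 2.89-fold, and Igfbp3 (0.201-fold) and Igfbp7 (0.156-fold) were lower. With at least 500 genes per cell 3 libraries could be compared, and Igf1, H19 and Igfbp3 were no longer called. Arterial-like cells, in 4 libraries, had 1 of 4 called, Igfbp4 by 8.97-fold, against 0.623% of 6577 genes (0.593% higher and 0.0304% lower). That fold is pooled, and by library the log2 difference of Igfbp4 was 2.08, 6.40, 2.20 and 3.79 in libraries 1 to 4. The median log2 differences of all members, compared or not, were 2.98, 0.86 and 0.64. Those of the genes compared were -0.04, 0.08 and 0.01, so the 2 sets of medians do not cover genes chosen alike. The 3 comparisons share their capillary-like cells.

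Smooth muscle-like and pericyte-like cells, in libraries 1 to 3, differed in 1 of 4 members, against 10.7% of 7179 genes (6.96% lower). Igfbp3 was lower in smooth muscle-like cells, with 9.82, 42.1 and 11.2 CPM against 96.8, 142 and 267 CPM. The pericyte-like class also carried endothelial markers, which summed to 3267, 4458 and 3932 CPM in libraries 1 to 3, against 648, 728 and 603 CPM in smooth muscle-like cells. Its erythroid markers summed to 11457, 4267 and 5669 CPM, against 366, 98.7 and 52.8 CPM. Capillary-like cells had 100.4, 72.9 and 301 CPM of Igfbp3, and the part of these markers in the result was not tested. Resident-like and infiltrating-like macrophages could be compared in library 2 only, where all 4 members compared were called, against 9.48% of 5729 genes (5.66% higher and 3.82% lower). Igf1 was higher in resident-like cells by 3.18-fold, Igfbp4 by 2.20-fold and Igfbp7 by 2.19-fold, and Igfbp6 was lower (0.179-fold). With at least 500 genes per cell, 2 libraries held enough cells of both classes and no member was called.

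**Figure D5:**
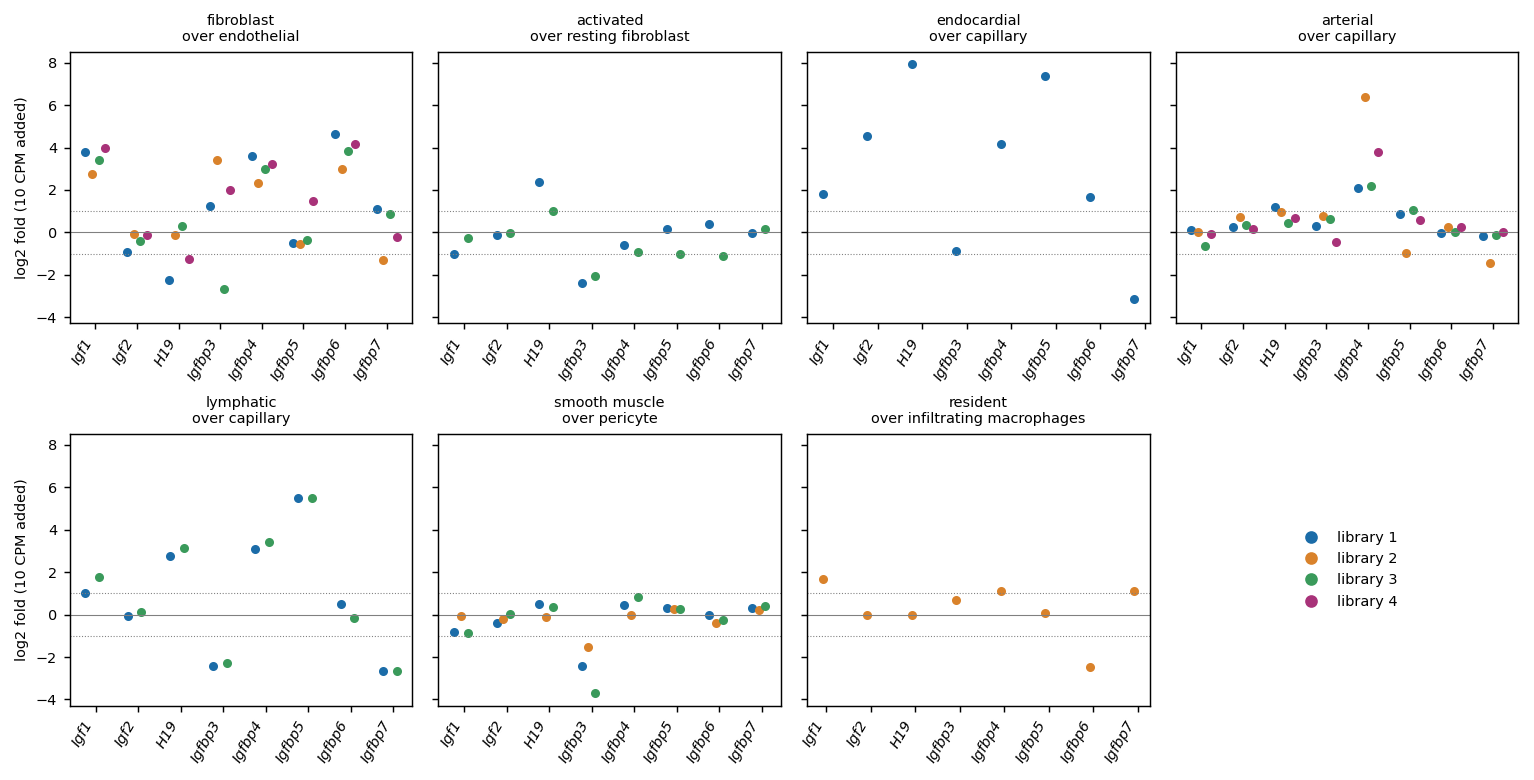
Log2 fold between classes with 10 CPM added (vertical axis) for each gene (horizontal axis) in 7 comparisons, 1 point per library with at least 50 cells of both classes. Dotted lines mark 2-fold. Igfbp4 lies above the upper line in all 4 libraries for arterial-like over capillary-like cells, and Igfbp3 lies above it in 3 libraries and below the lower line in library 3 for fibroblast-like over endothelial-like cells.

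The spread between libraries was wide within a single class as well. With the same 2-fold rule, the highest and lowest library differed for 7 of 7 members in fibroblast-like cells, against 39.4% of 6179 genes. All 3 members compared were past it in capillary-like cells (22.3% of 6247 genes) and in macrophage-like cells (25.4% of 5369), all 4 in arterial-like cells (26.8% of 6274) and both in granulocyte-like cells (47.4% of 4134). In pericyte-like cells 3 of 4 were past it (11.5% of 6672) and in smooth muscle-like cells 3 of 4 (12.6% of 6158). Igfbp4 was the exception in both mural classes, with 185, 287 and 158 CPM and with 254, 283 and 289 CPM in libraries 1 to 3. Differences between libraries, grafts and the make-up of a class cannot be told apart here.

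The wider pathway was read from 38 genes, of which 24 reached 20 CPM in at least 1 class. Their levels are pooled over libraries. Of the receptors, Igf1r was highest in granulocyte-like cells (265 CPM) and smooth muscle-like cells (192 CPM), Igf2r in endocardial-like cells (347 CPM, interval 318 to 378) and Insr in venous-like (149 CPM) and endocardial-like (136 CPM) cells. The endocardial-like class with the Igf2 transcript thus also had the most of the receptor that clears its product. Among adaptors, Irs2 was highest in Gpx3 fibroblast-like cells (279.9 CPM), Grb14 in cardiomyocyte-like cells (158 CPM) and Grb10 in mesothelial-like cells (164 CPM). Shc1 was highest in lymphatic-like cells (146 CPM) and Irs1 in valve-like cells (25.7 CPM). The Irs1 interval overlapped that of activated fibroblast-like cells (22.4 CPM), and the Insr intervals of venous-like and endocardial-like cells overlapped too.

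Pappa and Pappa2, proteases that release growth factor from binding proteins, peaked in Schwann-like (186 CPM) and valve-like (42.2 CPM) cells. Their inhibitors Stc2 and Stc1 peaked in Schwann-like (571 CPM) and endocardial-like (255 CPM) cells, and the protease Htra1 in Schwann-like cells (296 CPM). The Htra1 interval overlapped that of Gpx3 cells (278 CPM). Schwann-like cells therefore held the highest Pappa and Stc2 and the second highest Igfbp5. In the growth hormone axis, the receptor Ghr was highest in Gpx3 (139 CPM) and valve-like (137 CPM) cells, with overlapping intervals. The feedback inhibitor Socs2 was highest in valve-like cells (403 CPM). Igfbp2, 5457 bases from Igfbp5, reached only 40.8 CPM in activated-like cells, and Igfbp1, 3539 bases from Igfbp3, was below 1 CPM everywhere.

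Imprinted growth genes peaked in several classes. Plagl1, a regulator of the imprinted network, was highest in endocardial-like cells (241 CPM) and at most 43.5 CPM in the other classes. Cdkn1c was highest in arterial-like (261 CPM) and endocardial-like (236 CPM) cells. Meg3 (1068 CPM) was highest in resting fibroblast-like cells and Ndn (125 CPM) and Dcn (23842 CPM) in Gpx3 cells, and Mest in cycling endothelial cells (129 CPM). Peg3 had overlapping intervals in endocardial-like (109.7 CPM) and resting fibroblast-like cells (107 CPM). The highest interval also overlapped the next for Cdkn1c, for Meg3 (mesothelial-like, 1035 CPM) and for Ndn (resting fibroblast-like, 123 CPM). Igf2bp2, which binds Igf2 mRNA, reached 27.0 CPM in mesothelial-like cells. The endocardial comparison was made in library 1 only. There 11 of 17 pathway genes compared were higher and 0 lower, against 8.33% and 8.44% of all genes. They were Igf2r, Insr, Irs2, Shc1, Stc1, Stc2, Ghr, Peg3, Plagl1, Ndn and Dcn, and Dcn is itself one of the fibroblast markers. Pooled over libraries, Irs2, Ghr, Ndn and Dcn were highest in Gpx3 cells, and Igf2r, Stc1, Peg3 and Plagl1 in endocardial-like cells. In library 1 the fibroblast markers summed to 11112 CPM in endocardial-like and 900 CPM in capillary-like cells. The part of fibroblast RNA in these calls was not tested. Between fibroblast-like and endothelial-like cells 5 of 18 were higher in the first (Irs2, Pappa, Meg3, Ndn and Dcn), against 5.63% of all genes. 3 were lower (Stc1, Cdkn1c and Mest), against 8.52%. Dcn is on the list that named the fibroblast-like cells, so its call followed from the naming and is no result.

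The genes most alike each member were read from the Pearson correlation of log2(CPM + 10) over 59 groups, each a class in 1 library with at least 50 cells, among 11718 genes. The groups share libraries and classes, so r is a description. For Igfbp7 the closest were Serpinh1 (0.97), Sparc (0.96) and Lix1l (0.95), and Serpinh1 and Sparc serve collagen assembly and the matrix. For Igf2 they were Hbb-y (0.96), Sall1 (0.95) and A2m (0.95), each highest in endocardial-like cells of library 1, the only endocardial-like group among the 59, on which these values rest. For Igfbp5 they were Cpe (0.92), Nr2f2 (0.86) and Pard3 (0.85), and Nr2f2 marks venous and lymphatic identity. For Igf1 they were Olfml3 (0.85), Cryzl2 (0.84) and Cd276 (0.84), for Igfbp4 Mgp (0.86), Sulf1 (0.84) and Fstl1 (0.83), for H19 Megf6 (0.87), Nppc (0.73) and Cdh11 (0.73), for Igfbp3 Mamld1 (0.81), Plpp3 (0.80) and Lmbr1 (0.80) and for Igfbp6 Smoc2 (0.80), Mfap5 (0.79) and Slc1a3 (0.78). Between members, the highest r were 0.73 for Igfbp3 with Igfbp7, 0.70 for Igf2 with H19 and 0.63 for Igf1 with Igfbp4. Outside the endocardial-like class the pooled Igf2 level was at most 3.87 CPM (arterial-like). Its r with H19 therefore also rests mainly on the endocardial-like group of library 1.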

How the data were processed

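Libraries were made with the Chromium Single Cell 3' v3 kit from 4 grafts. According to the submitters' processing notes, CASAVA 1.8, Cell Ranger and Seurat were used with the build mm10, and the matrix header names Cell Ranger 3.0.0. The authors deposited 1 merged matrix of UMI counts per gene and cell (53824 cells, 30905 genes), not normalized.

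Cells with over 200 genes and under 20% mitochondrial UMIs were kept (44626 cells). Doublets were simulated in each library and the 5% of cells with the most simulated neighbours removed, leaving 42395. Each cell's counts were brought to a total of 10000 and logged. 2000 variable genes gave 10 principal components, a shared neighbour graph (30 neighbours) and Leiden clusters at resolution 0.8. The 8 members, mitochondrial genes and the pathway genes other than Dcn, a fibroblast marker, were left out of the variable genes. The tools were leidenalg 0.10.2, igraph 0.11.9, scikit-learn 1.9.0, scipy 1.17.1 and Python 3.11.15. Endothelial, fibroblast, macrophage and dendritic cells were clustered again on 20 components centred on library means, at resolution 1. A class needed 3 or more markers of a fixed list (36 lists: the cell types, and subsets within the endothelial, fibroblast and macrophage and dendritic compartments) detected in 10% of its cells and 2-fold above the other clusters, and a cluster under 1/3 of its libraries' median depth without its own markers leading, or led by markers of another class, stayed unnamed. A cluster with 75% or more of another class's markers was left without a class, which was chosen after the data were seen. 4011 cells had no class and 4497 a class but no subclass.

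Levels (CPM) are pooled UMIs per 1000000 non-mitochondrial UMIs. Their 95% intervals are exact Poisson limits, which cover counting error only. The merged matrix is 1 pooled sample, so no test across samples was made and no p-value is given. A gene was called when past 2-fold with 10 CPM added in every library with 50 or more cells of both classes, if at 20 CPM in either class. The procedure was checked on simulated counts. Named genes were the 8 members, pathway genes at 20 CPM or more in 1 class, and for each member the 3 genes with the highest correlation over classes by library. The members, pathway and marker lists were chosen with earlier results of these data known. Positions are from GENCODE M21 on GRCm38 (30766 of 30905 gene IDs matched), and sequences from RefSeq tables on GRCm38.p6, where 7 members had a promoter window. Which graft each library is was not analysed here.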

Additional observations from a re-analysis of the deposited data

How the results depend on the processing

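The calls for fibroblast-like over endothelial-like cells (Igf1, Igfbp4 and Igfbp6) and for smooth muscle-like against pericyte-like cells (Igfbp3), and the Igfbp4 call in arterial-like cells, held under every alternative that gave a value, and no called direction reversed. Between activated and resting fibroblast-like cells, where 1 member was called, 2 were with 1 CPM added, with libraries weighted equally, with the mean of the cells' own CPM, with 20 components and without library centring, 3 with doublets kept and 4 with single-cell gates. Igfbp3 was among them each time, and leaving out 1 library gave 1 to 3. The lymphatic-like count went from 6 to 3 (Igfbp4, Igfbp5 and Igfbp7) with at least 500 genes per cell, at resolution 1.6 and with 20 components, where 3 libraries in place of 2 were compared. The resident-like count went from 4 to 1 (Igfbp6) with 50 CPM added and to 0 with at least 500 genes per cell. The endocardial-like count ran from 5 to 8 around the 7 reported, with Igf2, H19, Igfbp4 and Igfbp5 in each. Arterial-like cells had 2 called, with Igfbp5 lower, without library centring. Leaving out 1 library gave 3 to 4 for fibroblast-like over endothelial-like cells and no change in the other counts it could give. No value came for endocardial-like cells with doublets kept, with 20 components or without library 1, for macrophages without library 2 or with single-cell gates, for mural cells at resolution 0.4 and for lymphatic-like cells in the comparison with doublets kept. Of 24 levels followed, 7 moved by over 1.5 times with single-cell gates, among them Igf1 in resting fibroblast-like cells (395 CPM) and H19 (2163 CPM) and Igfbp5 (3229 CPM) in endocardial-like cells. With doublets kept, lymphatic-like cells had 21.6 CPM of H19 and 344 CPM of Igfbp5. The causes were not tested. With all deposited cells in the total, fibroblast-like cells held 68.8% of Igf1 UMIs and endothelial-like cells 63.6% of Igf2 and 39.5% of H19 UMIs. Subclusters without library centring, and keeping the class of clusters with markers of 2 classes, were alternatives chosen after seeing the data, and the second changed no count. No paired analysis was possible because the matrix columns carry no replicate numbers of the grafts. Depth limits Igf2 the most, with 603 UMIs in all.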
